A study of Mus musculus with 12 samples.

Results

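The sets of mouse embryonic stem cell libraries numbered 49 and 81 carry the same genotype label, Tet1KO Tet2 N1300T, and were compared with each other over autosomal genes. Each set had 3 libraries, lettered A, B and C, so 6 of the 12 libraries of the series entered the contrast, and 15041 of the 16014 genes that passed a filter on low counts lay on an autosome. N1300T 49 and N1300T 81 both lack Tet1 and carry the Tet2 change N1300T by that label. DKO, numbered 41, lacks both Tet1 and Tet2 by its label, and Tet1KO is named for the loss of Tet1 alone, so every library lacks Tet1 by its label and no group with intact Tet1 was analysed here. All cells were V6.5, a male line. They grew on gelatin in serum medium with LIF, the GSK3 inhibitor CHIR99021 and the MEK inhibitor PD0325901, and no group was treated. The labels do not say whether the numbers mark clones, cultures or something else, and each number is called a preparation below. They do not say either whether A, B and C were grown separately. The p-values rest on how far these libraries vary, which may be technical spread alone.

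TET enzymes oxidise 5-methylcytosine, a step by which methyl groups are removed from cytosines that precede guanine (CpG sites). Methylated promoters of germline genes and the methylated alleles of imprinted genes are among the regions where gain or loss of methyl groups is known to go with a change in transcription. Imprinted genes are expressed mainly from the allele of one parent, and imprinting marks are known to be lost or gained unevenly between embryonic stem cell lines. Stem cells are also known to lose the Y chromosome, wholly or in part, in culture. A comparison inside a genotype label shows how far cells with that label differ from each other.

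Total counts were 50100842, 37405732 and 31515011 in N1300T 49 A, B and C, and 50798498, 53408950 and 45291457 in N1300T 81. Stem cell markers were high in both preparations: all 10 examined, among them Pou5f1, Nanog and Esrrb, were read in every library, summed to 7780 to 8150 CPM (counts scaled to a common library size) in N1300T 49 and 7600 to 8040 CPM in N1300T 81, and none was called. Of 10 feeder fibroblast markers 6 stood under 1 CPM in all 6 libraries, and the 10 summed to 12.4 to 13.9 CPM in N1300T 49 and 13.4 to 16.9 CPM in N1300T 81. The preparations stood apart on the Y chromosome. Ddx3y, a Y-linked RNA helicase, had 2313, 1690 and 1595 counts in N1300T 49, against 2, 0 and 6 counts in N1300T 81. Uty, a Y-linked histone demethylase homologue, had 1601, 989 and 791 counts in N1300T 49, against 0, 0 and 6 in N1300T 81. Eif2s3y was low in both, with 28, 26 and 29 counts in N1300T 49 and 4, 8 and 10 in N1300T 81, where DKO held 6064 and Tet1KO 7539 over 3 libraries. Uba1y, the other Y-linked gene called, had 81, 57 and 47 counts in N1300T 49 and 17, 13 and 11 in N1300T 81. So the N1300T 81 libraries were almost without reads of Ddx3y and Uty although the line is male. Both preparations had few reads of Eif2s3y, which has an X-linked copy that makes the source of few reads uncertain. The source of the few Ddx3y, Uty and Uba1y reads in N1300T 81 is uncertain as well. The remaining tested genes placed on the Y chromosome did not differ by the test. Gm33272, a predicted gene at 90793687 to 90806846, had 2.58 to 2.95 CPM in N1300T 49 and 2.44 to 3.14 CPM in N1300T 81. Whether its reads come from the Y chromosome alone was not tested. Gapdh-ps15, a pseudogene of Gapdh whose reads are uncertain for that reason, had 1.22 to 1.44 CPM in N1300T 49 and 0.888 to 2.16 CPM in N1300T 81. These levels do not tell whether N1300T 81 kept part of the Y chromosome. The whole N1300T 81 arm is concerned, so no autosomal result can be given without these libraries, and whether the difference in Y-linked reads has a part in the autosomal differences was not tested. Levels from bulk RNA do not tell fewer cells that express a gene from less RNA of it per cell.

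Autosomal genes were called in both directions between the preparations. How many depended on the tool, the filter and a block for the replicate letter. At an adjusted p under 0.05 (edgeR's quasi-likelihood test, Benjamini-Hochberg over all genes tested), 51 genes were called, which is 0.339% of the autosomal genes tested. In N1300T 49, 24 were higher (0.16%) and 27 lower (0.18%). Over all chromosomes 58 genes were called (0.362%). At an unadjusted p under 0.05 there were 1125 of 15041 autosomal genes, where a share of about 0.05 would lie without any difference. DESeq2 called 99, a fit with no filter on low counts 225, and a fit of the 6 N1300T libraries alone 33. With a block for the replicate letter, 96 were called over 12 libraries and 220 over the 6, though the labels do not pair the letters. In all 51 the libraries of the preparations did not overlap, as in 10.3% of autosomal genes overall. Without any difference 3 against 3 libraries would separate with a probability of 0.1. Most differences were modest: 6 genes lay more than 2-fold higher, 7 more than 2-fold lower, and 16 differed by less than 1.5-fold. The median absolute log2 fold change was 0.0909 over autosomal genes, and the median signed one -0.00408. Of the called genes 32 reached 10 CPM in the higher preparation, and 7 stayed under 3 CPM. The number of calls depends on single libraries: it was 32 without N1300T 49 A and 33 without N1300T 81 A, and 72 without N1300T 81 C. With any 1 of the 12 libraries left out, 28 of the 51 stayed called each time.

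**Figure D1:**
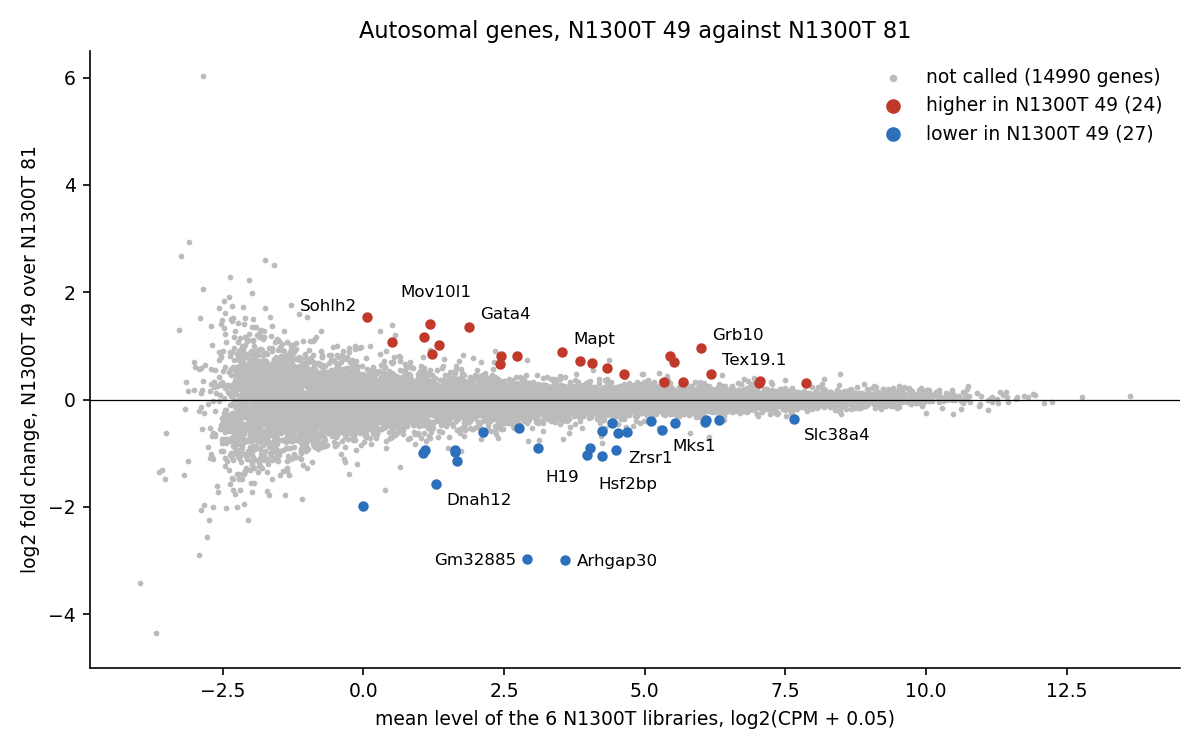
Log2 fold change of N1300T 49 over N1300T 81 against the mean level of the 6 libraries on a log2 scale, 1 point per autosomal gene. The 24 genes called higher (red) and the 27 called lower (blue) in N1300T 49 stand among the grey genes that were not called, and Arhgap30 and Gm32885 lie lowest of the called genes.

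The largest fall among called genes was that of Arhgap30, which encodes a GTPase-activating protein (chromosome 1, 171388960 to 171410240, mm10). Its level was 2.77, 3.33 and 1.80 CPM in N1300T 49 A, B and C, against 22.2, 22.5 and 18.8 CPM in N1300T 81. The DKO libraries (21.8 to 23.5 CPM) and the Tet1KO libraries (18.3 to 22.3 CPM) lay at the level of N1300T 81, so N1300T 49 alone stood apart. The log2 fold change was -2.99 ± 0.15 (SE), a 7.95-fold fall, with an adjusted p of 7.18e-10. The 25 other tested genes within 500 kb had a median log2 fold change of -0.02, and none of them was called. Gm32885, a predicted gene on chromosome 15 that, like Gm13261 below, was singled out after its values were seen, showed nearly the same fall, with 1.85, 1.19 and 1.99 CPM in N1300T 49 and 12.6, 13.5 and 13.4 CPM in N1300T 81 (-2.97 ± 0.13, adjusted p 1.79e-10). It was 20.8 ± 0.64 CPM in DKO and 9.82 ± 0.345 CPM in Tet1KO (SD, n = 3 each), again with only N1300T 49 outside. Gm32885 overlaps Gm33149 (log2 fold change -1.61, not called), so its reads are uncertain.

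Zrsr1 is a paternally expressed imprinted gene that lies inside an intron of Commd1 and encodes a protein related to splicing factors (chromosome 11, 22972005 to 22976496). It had 15.2, 13.9 and 16.8 CPM in N1300T 49, against 29.5, 26.8 and 31.7 CPM in N1300T 81. The 6 DKO and Tet1KO libraries lay between 28.4 and 30.5 CPM, at the level of N1300T 81, and the fall in N1300T 49 was 1.92-fold (-0.94 ± 0.08 on the log2 scale, adjusted p 5.69e-06). Reads of Zrsr1 and Commd1 cannot be told apart where the genes overlap, and Commd1 was not called (0.13 ± 0.09). Since TET enzymes act on CpG sites, the 250 bases before the start of Arhgap30, chr1:171388710-171388959, and of Zrsr1, chr11:22971755-22972004, both on the plus strand of RefSeq's GRCm38.p6 (mm10), are shown with each CpG (the letters CG, which read the same on both strands) in capitals.
Arhgap30: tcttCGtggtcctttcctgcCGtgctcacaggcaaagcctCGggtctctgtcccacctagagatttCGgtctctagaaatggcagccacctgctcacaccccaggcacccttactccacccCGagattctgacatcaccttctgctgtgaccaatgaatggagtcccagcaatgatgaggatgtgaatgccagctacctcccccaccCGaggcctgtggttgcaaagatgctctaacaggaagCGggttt
Zrsr1: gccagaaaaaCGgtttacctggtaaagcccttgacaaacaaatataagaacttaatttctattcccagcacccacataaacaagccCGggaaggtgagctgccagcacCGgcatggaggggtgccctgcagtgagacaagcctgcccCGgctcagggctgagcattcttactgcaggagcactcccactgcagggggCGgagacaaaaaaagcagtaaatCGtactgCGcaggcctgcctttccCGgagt
The windows hold 7 and 8 CpGs. Of 32851 RefSeq windows of this length 92.1% hold at least 1 CpG, and 57.0% hold no more than that of Arhgap30. No methylation was measured, and the letters are a description of the reference.

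Hsf2bp and Dnah12 also fell in N1300T 49, and in both genes Tet1KO was near the N1300T 81 level. Hsf2bp, whose product takes part in meiotic recombination with BRCA2 in mice, had 13.3, 11.5 and 12.3 CPM in N1300T 49, against 24.4, 24.7 and 27.6 CPM in N1300T 81 (-1.04 ± 0.09, adjusted p 7.62e-06). DKO stood higher still at 42.9 ± 2.32 CPM and Tet1KO was at 26.9 ± 3.31 CPM. Dnah12, an axonemal dynein heavy chain, had 1.38, 1.19 and 1.01 CPM in N1300T 49, against 3.67, 3.36 and 3.76 CPM in N1300T 81 (-1.57 ± 0.18, adjusted p 0.000124). Arhgap30, Gm32885, Dnah12 and Hsf2bp were also the 4 genes, all lower, whose change exceeded 1.5-fold by a test against that fold. Ushbp1 fell by 1.14 on the log2 scale (SE 0.20, adjusted p 0.0111), with 1.81 to 2.14 CPM in N1300T 49 and 3.12 to 5.17 CPM in N1300T 81, and both lay below every DKO and Tet1KO library.

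In some other genes called lower, N1300T 81 alone lay outside the range of the DKO and Tet1KO libraries, above it. Ankrd45, an ankyrin repeat gene, had 12.6, 11.6 and 9.74 CPM in N1300T 49, against 24.6, 22.4 and 16.9 CPM in N1300T 81 (-0.91 ± 0.14, adjusted p 0.00267). DKO was at 9.53 ± 1.47 CPM and Tet1KO at 8.04 ± 0.596 CPM, below N1300T 81. Against Tet1KO, Ankrd45 was called higher in N1300T 49 too (0.50 ± 0.15, adjusted p 0.035 by edgeR's quasi-likelihood test). Ankrd45 overlaps 4930469G21Rik (-0.27, not called), so its reads are uncertain. Slc35c1, the GDP-fucose transporter of the Golgi, had 18.9, 22.6 and 19.9 CPM in N1300T 49, against 32.0, 32.1 and 29.3 CPM in N1300T 81 (-0.61 ± 0.09), while the other 6 libraries lay between 16.9 and 19.8 CPM. Mks1, a gene of the ciliary transition zone, had 29.0, 32.4 and 34.5 CPM in N1300T 49, against 45.9, 49.2 and 47.4 CPM in N1300T 81 (-0.57 ± 0.07); it was singled out after its values were seen. Ppp1r26, a regulatory subunit of protein phosphatase 1, stood at 5.97 ± 0.811 CPM in N1300T 49 and 11.2 ± 1.00 CPM in N1300T 81. Pkd1l2, of the polycystin family, stood at 2.04 ± 0.242 CPM in N1300T 49 and 4.05 ± 0.376 CPM in N1300T 81. Cfl2, a cofilin, differed in another way: 14.9 ± 1.40 CPM in N1300T 49 and 22.6 ± 1.11 CPM in N1300T 81, with Tet1KO (14.6 ± 1.84 CPM) near N1300T 49 and DKO (26.0 ± 1.24 CPM) above N1300T 81. In Cuedc1, Phkg1 and Pstpip2, also called lower, only N1300T 49 lay outside the range of the DKO and Tet1KO libraries, below it. They stood at -0.95 ± 0.18, -0.61 ± 0.13 and -0.99 ± 0.21, but their calls rest on single libraries. That of Cuedc1 was lost without any 1 of N1300T 49 A, B or C or N1300T 81 A or B, that of Phkg1 without any library except N1300T 49 B, and that of Pstpip2 without any library except N1300T 81 C. Cuedc1 overlaps Mrps23, Phkg1 overlaps Sumf2 and Pstpip2 overlaps F830208F22Rik, so their reads are uncertain.

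**Figure D2:**
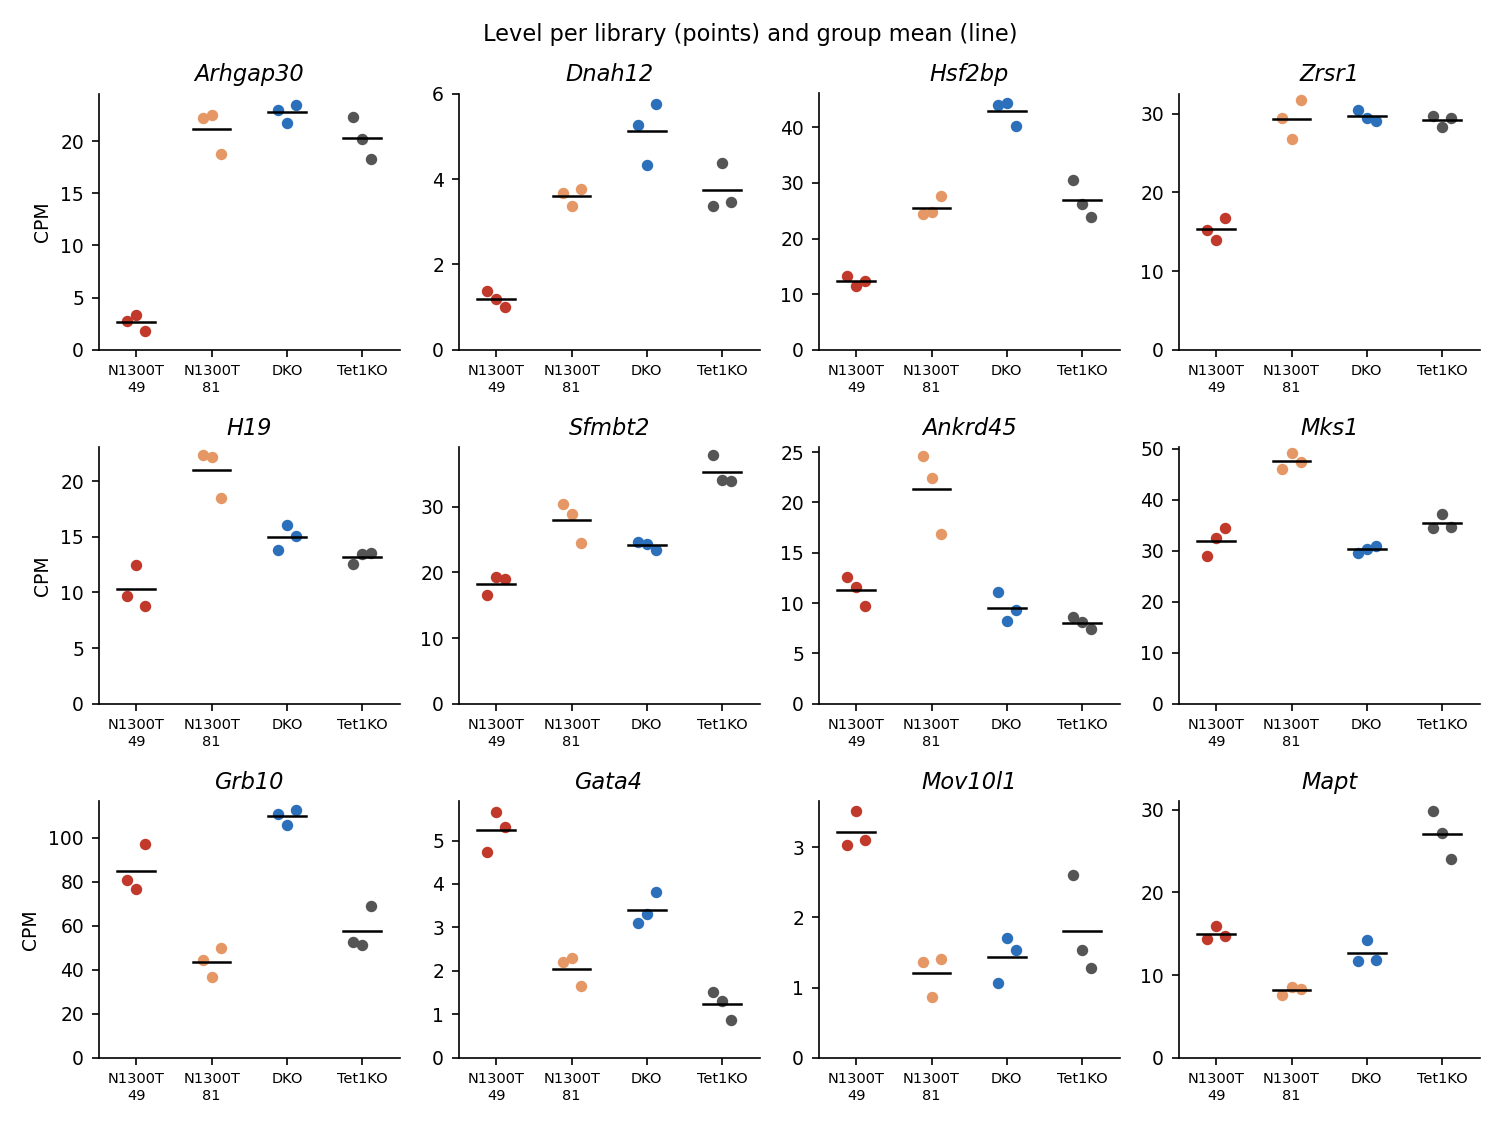
CPM of 12 called genes in each library (points) with the group mean (line), for N1300T 49, N1300T 81, DKO and Tet1KO. In Arhgap30, Dnah12, Hsf2bp and Zrsr1 N1300T 49 lies below all other libraries, and in Ankrd45 and Mks1 N1300T 81 lies above them.

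Among the genes higher in N1300T 49, Gata4 and Mov10l1 stood above every other library of the series. Gata4, a transcription factor of primitive endoderm and heart (chromosome 14, 63198914 to 63271712), had 4.74, 5.66 and 5.31 CPM in N1300T 49, against 2.21, 2.29 and 1.65 CPM in N1300T 81. DKO was at 3.40 ± 0.365 CPM and Tet1KO at 1.24 ± 0.328 CPM, and the rise over N1300T 81 was 1.35 ± 0.18 (adjusted p 0.00107). Of 18 autosomal genes of the primitive endoderm list Gata4 was the one called, where 0.339% of all autosomal genes were, and the list's median was 0.09. Of its 6 defining markers Sox17, Sox7 and Dab2 stayed under 1 CPM in all 6 libraries. The 6, Gata4 included, summed to 10.4 to 11.8 CPM in N1300T 49 and 7.25 to 7.62 CPM in N1300T 81 without overlap. Gata4, which was named for its difference, holds 5.24 CPM of that sum on average in N1300T 49 and 2.05 CPM in N1300T 81. The sum is therefore no separate sign of a difference. Whether the other markers differ as a set, or have a part in the difference of Gata4, was not tested. The sums of 7 trophoblast markers (131 to 141 CPM in N1300T 49, 146 to 156 CPM in N1300T 81) did not overlap either. Nor did those of 4 neuroectoderm markers (44.5 to 47.3 and 40.2 to 43.5 CPM). Those of 4 mesendoderm markers overlapped (50.4 to 52.4 and 43.6 to 56.0 CPM), and no marker of these lineages was called. Mov10l1, a helicase needed to make piRNAs in male germ cells (chromosome 15, 88982891 to 89055152), had 3.03, 3.52 and 3.10 CPM in N1300T 49, against 1.36, 0.864 and 1.41 CPM in N1300T 81 (1.41 ± 0.26, adjusted p 0.0168). That call was lost without any 1 of N1300T 49 A, B or C or N1300T 81 A or B, with adjusted p up to 0.0998. Mov10l1 was the 1 gene called among 25 autosomal germline genes known for promoter methylation, whose median was -0.02; of all autosomal genes 0.339% were called.

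Sohlh2, a transcription factor of germ cells that is not on that list, had 1.55, 0.894 and 2.02 CPM in N1300T 49, against 0.513, 0.526 and 0.484 CPM in N1300T 81 (1.54 ± 0.31, adjusted p 0.0374). Tet1KO was higher than both at 2.68 ± 0.851 CPM, and the call was lost without 49 A or 49 C, without any N1300T 81 or DKO library, and without Tet1KO B. Tex19.1, a gene of germ cells and placenta that restrains retrotransposons, was expressed far more, at 86.8, 78.5 and 88.0 CPM in N1300T 49, against 63.3, 59.2 and 59.3 CPM in N1300T 81 (0.48 ± 0.07, adjusted p 0.00117). The N1300T 49 libraries lay above all DKO and Tet1KO libraries (45.5 to 68.5 CPM).

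In 14 of the 24 genes called higher, N1300T 81 alone lay below all DKO and Tet1KO libraries, in some by little. Over all autosomal genes N1300T 81 alone lay outside the range of those libraries, above or below, in 5.01%. The 24 genes were called for being lower in N1300T 81, so the count is a description. Mapt, which encodes the microtubule protein tau, had 14.3, 15.98 and 14.7 CPM in N1300T 49, against 7.58, 8.56 and 8.27 CPM in N1300T 81 (0.88 ± 0.11, adjusted p 0.000229), with 12.6 ± 1.43 CPM in DKO and 27.02 ± 2.90 CPM in Tet1KO. Borcs8, a subunit of a complex that positions lysosomes, had 19.4, 18.4 and 23.9 CPM in N1300T 49, against 12.04, 13.3 and 13.1 CPM in N1300T 81 (0.68 ± 0.09), and DKO and Tet1KO lay at the N1300T 49 level (18.8 to 21.6 CPM). Gap43, a protein of growing axons, stood at 8.32 ± 0.802 CPM in N1300T 49 and 4.77 ± 0.528 CPM in N1300T 81, and against DKO it was at 0.51 in N1300T 49 and -0.29 in N1300T 81 on the log2 scale. Ebf1, a transcription factor of B cells, stood at 6.89 ± 0.514 CPM in N1300T 49 and 3.92 ± 0.156 CPM in N1300T 81. Adcy1, an adenylyl cyclase, stood at 24.3 ± 2.43 CPM in N1300T 49, above the other 6 libraries, and at 16.1 ± 0.337 CPM in N1300T 81, below them. Nabp1 (single-stranded DNA binding), Clcn4 (a chloride and proton exchanger) and Nxn (nucleoredoxin) were called higher at 0.72 ± 0.13, 0.66 ± 0.13 and 0.34 ± 0.06, and in these 3 both preparations overlapped the range of the DKO and Tet1KO libraries. The call of Ebf1 was lost without any 1 of N1300T 49 A, B or C or N1300T 81 A or B, and that of Nabp1 without N1300T 49 A or B. The call of Clcn4 was lost without N1300T 49 A or B, N1300T 81 A or C or DKO A or C. Those of Nxn and Ushbp1 were lost without N1300T 49 A or C or N1300T 81 B, and that of Pkd1l2 without N1300T 49 B or C or N1300T 81 A.

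The neighbours Ngly1, an enzyme that removes N-glycans from proteins, and Top2b, the beta form of DNA topoisomerase II, lie on chromosome 14. They are 53280 bases apart, and both were higher in N1300T 49 than in N1300T 81. In both genes only N1300T 81 lay outside the range of the DKO and Tet1KO libraries, below it. Ngly1 stood at 2.16 ± 0.259 CPM in DKO and 3.39 ± 0.534 CPM in Tet1KO. Top2b stood at 25.9 ± 1.33 CPM in DKO and 25.4 ± 0.762 CPM in Tet1KO. Ngly1 had 3.501, 3.19 and 3.26 CPM in N1300T 49, against 1.78, 1.52 and 1.60 CPM in N1300T 81 (1.02 ± 0.17, adjusted p 0.006). Top2b had 26.99, 29.4 and 29.8 CPM in N1300T 49, against 20.7, 20.7 and 20.1 CPM in N1300T 81 (0.48 ± 0.07, adjusted p 0.00166). Oxsm, which overlaps Ngly1, was at 0.79 ± 0.22 and missed the threshold (adjusted p 0.278).

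Imprinted genes supplied 4 of the 7 called members of the gene lists. Of 39 autosomal imprinted genes tested, Grb10 rose, H19, Zrsr1 and Slc38a4 fell and 35 were not called, where 0.339% of all autosomal genes were called, and the median over the list was 0.05 beside -0.0041 over all autosomal genes. H19, a maternally expressed long noncoding RNA (chromosome 7, 142575530 to 142578146), had 9.67, 12.5 and 8.76 CPM in N1300T 49, against 22.4, 22.2 and 18.5 CPM in N1300T 81 (-1.03 ± 0.12, adjusted p 0.000131). The DKO libraries (13.8 to 16.1 CPM) and Tet1KO libraries (12.5 to 13.6 CPM) lay between the preparations, though N1300T 49 B (12.46 CPM) nearly reached Tet1KO A (12.53 CPM). Against DKO both preparations were called, in opposite directions (-0.54 ± 0.12 in N1300T 49, 0.49 ± 0.11 in N1300T 81). Against Tet1KO N1300T 81 was called (0.67 ± 0.12), but N1300T 49 was not (-0.36 ± 0.12, adjusted p 0.0662 by edgeR's quasi-likelihood test). Igf2, the paternally expressed neighbour of H19, was chosen after its values were seen: it had 2.38, 2.60 and 1.93 CPM in N1300T 49 and 1.42, 1.88 and 1.76 CPM in N1300T 81, and was not called (0.46 ± 0.21, adjusted p 0.636).

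Grb10, an adaptor of growth factor receptors whose expressed allele depends on the tissue (chromosome 11, 11930499 to 12037428), had 80.8, 76.8 and 97.4 CPM in N1300T 49, against 44.2, 36.7 and 50.03 CPM in N1300T 81 (0.96 ± 0.12, adjusted p 0.000312). DKO was above both at 110 ± 3.46 CPM, and Tet1KO was at 57.7 ± 9.97 CPM. LOC102631979, which lies inside Grb10, was at 0.982 ± 0.208 CPM in N1300T 49 and 0.718 ± 0.0528 CPM in N1300T 81 and was not called. Slc38a4, an amino acid transporter expressed from the paternal allele in mice, had 174, 182 and 170 CPM in N1300T 49, against 229, 227 and 222 CPM in N1300T 81 (-0.37 ± 0.05, adjusted p 0.00151), and N1300T 49 lay below all other libraries. Its called neighbour is Gm32885, described above, at a distance of 105058 bases. Sfmbt2, a Polycomb-related gene that is also paternally expressed in mice though not on the list, had 16.5, 19.3 and 18.9 CPM in N1300T 49, against 30.4, 28.9 and 24.5 CPM in N1300T 81 (-0.62 ± 0.09, adjusted p 0.00151). Gm13261, 5279 bases from it, was also lower in N1300T 49 (-0.95 ± 0.16), at 2.08 ± 0.161 CPM, against 4.01 ± 0.518 CPM in N1300T 81. In Sfmbt2 only N1300T 49 lay outside the range of the DKO and Tet1KO libraries, below it. In Gm13261 only N1300T 81 did, above it. The called imprinted genes moved in both directions, and allelic expression was not measured.

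**Figure D3:**
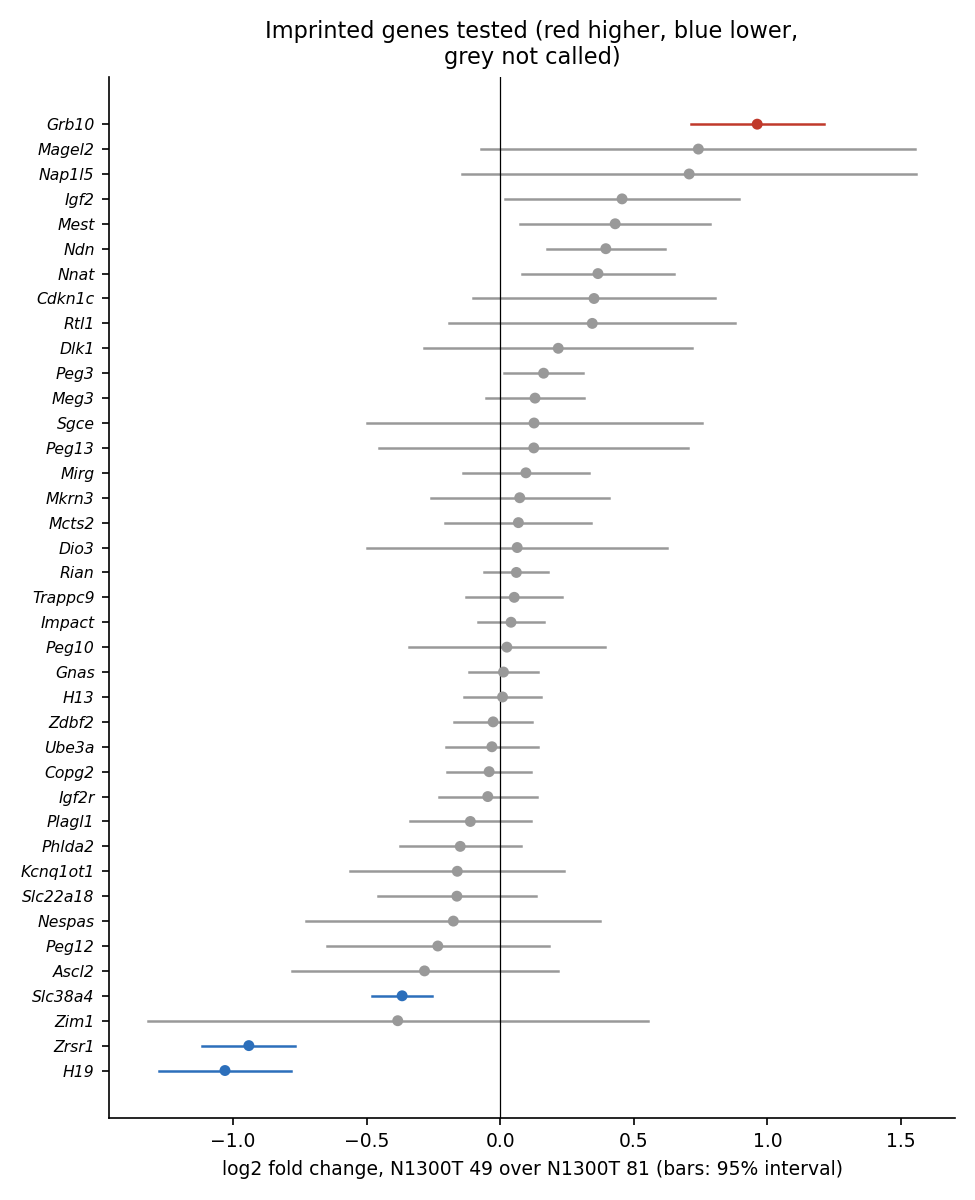
Log2 fold change of N1300T 49 over N1300T 81 with its 95% interval for the 39 imprinted genes tested. Grb10 (0.96) is the one called higher, and H19 (-1.03), Zrsr1 (-0.94) and Slc38a4 (-0.37) are called lower.

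The DKO and Tet1KO libraries place each called gene. In 16 genes only N1300T 49 lay outside the range of those 6 libraries, 13 times below it and 3 times above it (Gata4, Mov10l1 and Tex19.1). In 22 genes only N1300T 81 lay outside, 14 times below and 8 times above. Both lay outside in 4, on opposite sides in H19, Lonrf1 and Adcy1 and both below in Ushbp1, and neither did in 9. Over all autosomal genes the shares were 4.89% for N1300T 49 alone, 5.01% for N1300T 81 alone, 2.31% for both and 87.8% for neither. Genes called between the preparations cannot have both at the same level, so the counts are a description. Against DKO, 20 of the 51 were called in N1300T 49, where 2.27% of all autosomal genes were, and 26 in N1300T 81 (2.35% of all). Against Tet1KO, 28 were called in N1300T 49 (11% of all) and 36 in N1300T 81 (12.3% of all). These contrasts share libraries with each other and with the choice of the 51. Mapt, for example, was at -0.85 in N1300T 49 and -1.73 in N1300T 81 against Tet1KO, and Grb10 was at -0.37 in N1300T 49 and -1.33 in N1300T 81 against DKO.

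Of 49 called genes with another tested gene within 500 kb, 12 had another called gene there (24.5%), as had 3.52% of the 14795 autosomal genes with such a neighbour. The other 37 had none, and 38 of the 49 had neighbours whose median log2 fold change lay within 0.1 of 0. Close pairs differed in the same direction between the preparations. Besides Ngly1 and Top2b, Sfmbt2 and Gm13261, and Slc38a4 and Gm32885, these were Gm15698 and 2210409E12Rik (5707 bases apart, both higher). Ublcp1 and Ebf1 (both higher) and Mks1 and Cuedc1 (both lower) were the others. Sfmbt2 and Cuedc1 had only N1300T 49 outside the range of the DKO and Tet1KO libraries, and their partners Gm13261 and Mks1 only N1300T 81. The calls of Gm15698, Ublcp1 and, above, Lonrf1 were lost when 1 of several libraries was left out, N1300T 49 A and N1300T 81 A among them. Chromosome 11 held 14 of the 51 (1.06% of its 1327 genes), 11 of them higher in N1300T 49, among which are Grb10, Mapt, Adcy1 and Tex19.1; the other autosomes held 37 (0.27% of 13714), at most 0.774% on any of them. Without N1300T 49 A or N1300T 81 A the count on chromosome 11 was 8, and without N1300T 81 C it was 19, beside totals of 32, 33 and 72. The medians of whole autosomes lay near 0. The median log2 difference of an autosome ran between -0.0196 (chromosome 7) and 0.0219 (chromosome 3), single libraries between -0.0332 and 0.0473, and the lowest exact permutation p of 19 autosomes was 0.1, 2-sided, the smallest that 3 against 3 libraries can give. Chromosome 11 had a median of -0.0106, on the other side of 0 from most of its called genes.

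**Figure D4:**
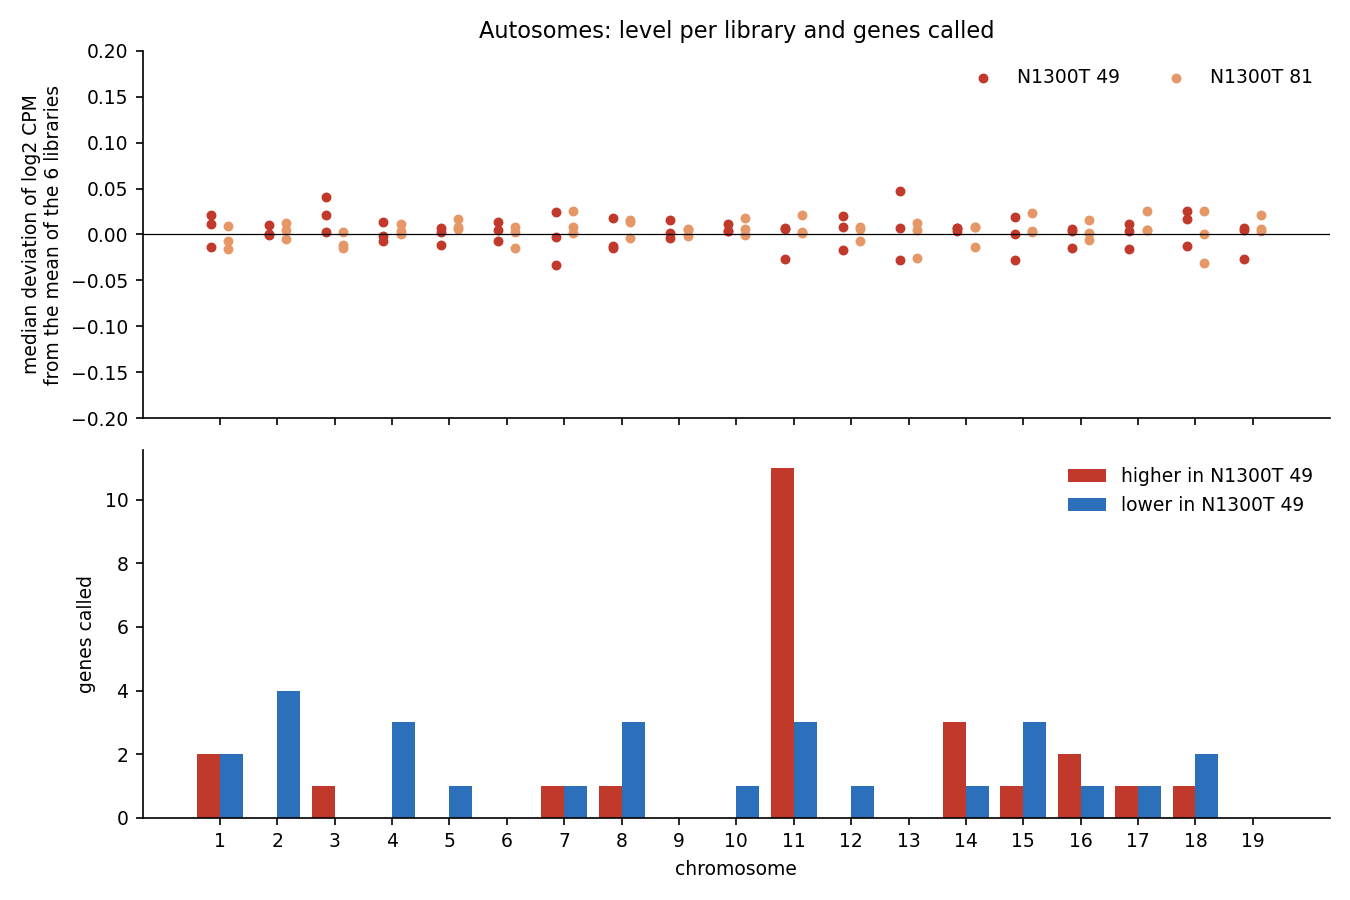
Upper panel, median deviation of log2 CPM from the mean of the 6 libraries per autosome, 1 point per library, with N1300T 49 left of N1300T 81; lower panel, genes called higher (red) and lower (blue) in N1300T 49. All library medians lie between -0.0332 and 0.0473, and chromosome 11 holds 11 of the 24 genes called higher.

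Most groups of genes with known roles in these cells held no called member. Over the 29 lists examined, 507 autosomal members were tested and 7 were called (1.38%, beside 0.339% of all autosomal genes): 3 higher (Grb10, Mov10l1 and Gata4) and 4 lower (H19, Zrsr1, Slc38a4 and Fbln1). Fbln1, a matrix glycoprotein on the fibroblast list, had 55.5, 58.8 and 64.3 CPM in N1300T 49, against 74.9, 83.3 and 73.6 CPM in N1300T 81 (-0.38 ± 0.07, adjusted p 0.0207), and lost its call without N1300T 49 A or B or N1300T 81 A or B. The whole list of 11 summed to 2145 to 2886 CPM in N1300T 49 and 2555 to 3161 CPM in N1300T 81, its other 10 members were not called, and the part of feeder cells was not tested; their markers Col1a2, Col3a1 and Dcn stayed under 1 CPM in all 6 libraries. At 0.339% of all autosomal genes lists of 15 to 27 genes would mostly hold no call, so nothing is read from the empty lists. No gene was called among 19 naive pluripotency genes (median -0.03, range -0.19 to 0.19), 15 genes of the DNA methylation machinery (median -0.04), 22 Polycomb and H3K27 enzyme genes (median -0.01), 27 S phase genes (median 0.00) or 24 genes of G2 and mitosis (median 0.02). None of the genes named by the genotypes or of the TET pathway was called. Tet2, with 138, 145 and 123 CPM in N1300T 49 and 156, 140 and 130 CPM in N1300T 81, differed by -0.07 (95% interval -0.25 to 0.11). That interval was -0.14 to 0.26 for Tet1, -0.28 to 0.33 for Tet3 and -0.23 to 0.11 for Tdg, the glycosylase that removes oxidised cytosines. Counts per gene show neither a changed codon nor a short deletion, so these levels do not test the genotypes. Tet2 was also read in DKO, at 94.5 ± 3.05 CPM (SD, n = 3), and Tet1 was read in all groups, at 147 to 176 CPM in N1300T 49, 137 to 170.3 CPM in N1300T 81, 168 to 180.2 CPM in DKO and 131 to 174 CPM in Tet1KO.

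Of the lists without a called member, glycolysis and hypoxia genes had the median farthest below 0 and the fewest members above it (median -0.25, 1 of 30 above 0, against 7332 of 15041 autosomal genes), with no gene called and 6 at an unadjusted p under 0.05. By library its median deviation from the mean of the 6 was -0.19, 0.07 and -0.22 in N1300T 49 A, B and C, and 0.11, 0.46 and -0.23 in N1300T 81, so the preparations overlapped and N1300T 81 B alone stood high. Of 28 p53 targets 24 lay above 0 by small amounts (median 0.08), with none called; their summed level was 2823 to 3055 CPM in N1300T 49 and 2593 to 2992 CPM in N1300T 81. All 6 neuroectoderm genes tested lay above 0 with none called, at 0.02, 0.07 and 0.52 in N1300T 49 and -0.24, -0.49 and 0.08 in N1300T 81, which overlap.

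**Figure D5:**
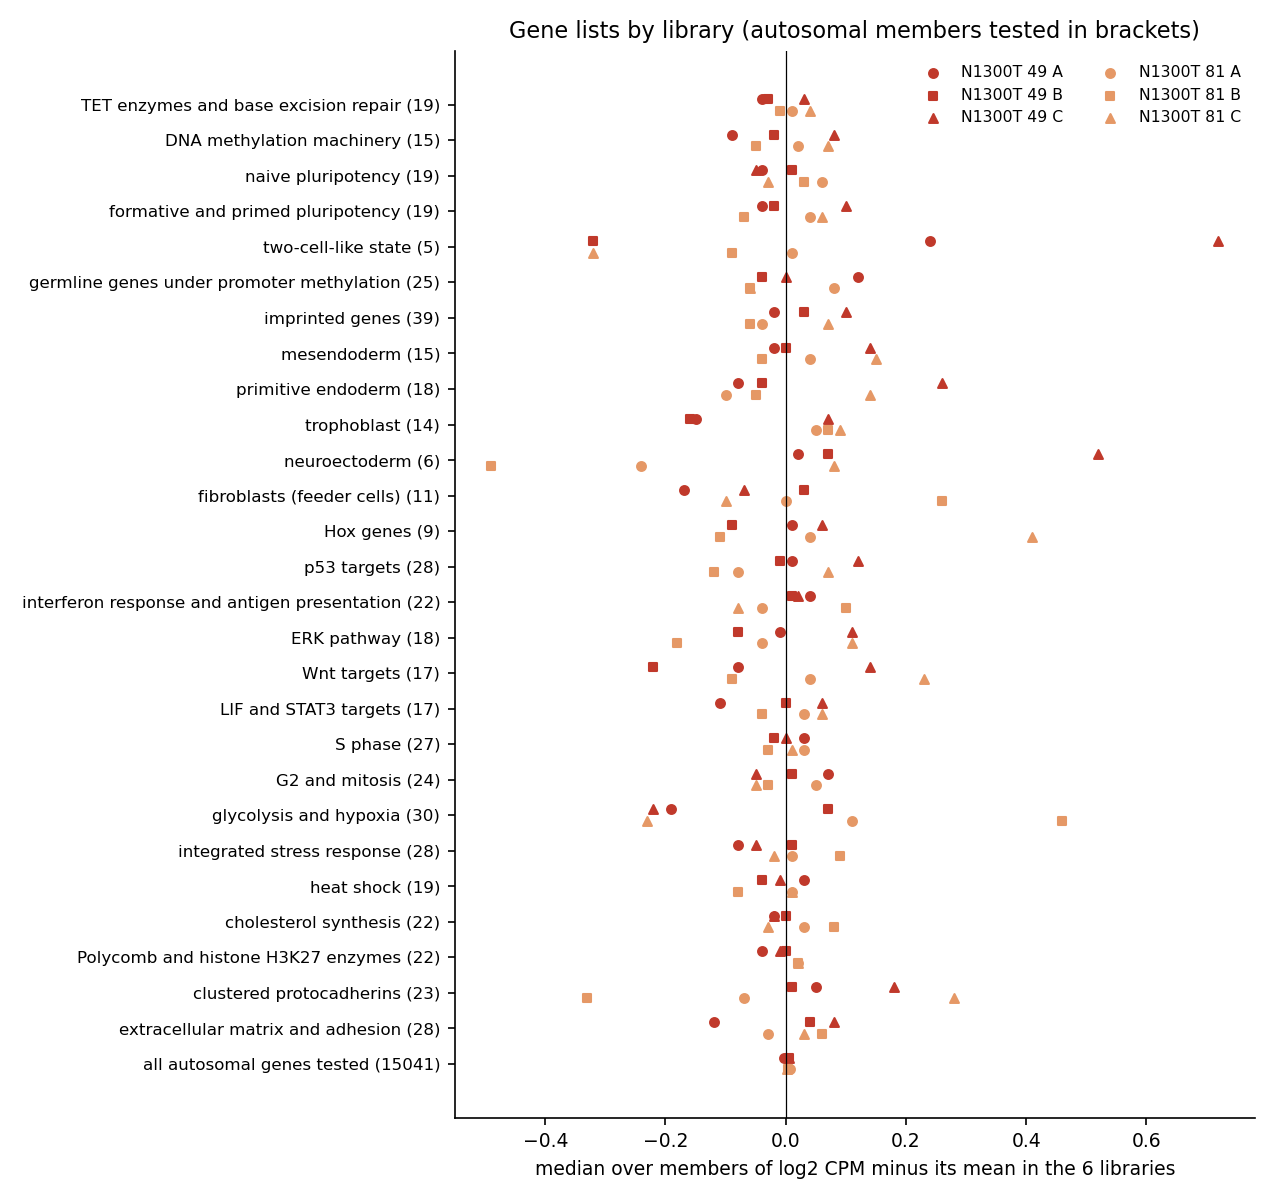
Median over the autosomal members of each gene list of log2 CPM minus its mean in the 6 libraries, 1 point per library (letters by shape). The libraries of N1300T 49 (red) and N1300T 81 (orange) overlap in 26 of 27 lists (not for Polycomb and H3K27 enzymes, where all lie within 0.04 of 0), and N1300T 81 B lies farthest right, at 0.46, for glycolysis and hypoxia.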

How the data were processed

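Paired-end sequencing of total RNA, per the labels' protocols, gave 12 libraries in 4 groups of 3. The authors deposited raw counts for 35976 gene symbols in 1 table. Build mm10 and DESeq2 are named in the submitters' processing notes. No source used here names an aligner or counter or says if strand was used, so reads of overlapping genes cannot be told apart. Even low counts outnumber odd ones (20282 values of 2, 5990 of 1), so both mates of a pair may have been counted and counting error may be understated; halved counts were an alternative.

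All 12 libraries were fitted together in R 4.3.3 by edgeR 4.0.16 (limma 3.58.1; filterByExpr by group, TMM factors 0.979 to 1.02, quasi-likelihood fit, 4 groups, 2-sided tests, Benjamini-Hochberg over 16014 genes, called at an adjusted p under 0.05). The tested genes held 99.97% of the counts, and the contrast was N1300T 49 minus N1300T 81. CPM are normalized by TMM; means are ± SD with n = 3 and log2 fold changes ± SE. Chromosomes and positions came from RefSeq's GRCm38.p6 (mm10) by symbol or unique synonym for 97.3% of tested genes, and the 425 tested genes without one are in no autosomal count. Chromosome medians were taken on log2 CPM (prior count 2), with exact permutation over 20 splits. On simulated counts with 200 changed genes among 15751, the test of this contrast recovered 36% of genes changed 1.2-fold, 84% at 1.5-fold, 98% at 2-fold and 100% at 4-fold, with 8 false calls. The changed genes were drawn from those with a mean of at least 1 CPM, so these shares do not cover lower genes. Counts were drawn independently in each library.

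Named genes are the 15 largest rises and 15 largest falls among called autosomal genes with at least 1 CPM in the higher preparation, no overlap between libraries and no predicted or clone name, every called list member, and Tet1, Tet2, Tet3 and Tdg; others are said to be chosen after their values were seen or are named as neighbours or among counts. The comparison, its genes and the 29 gene lists were chosen with earlier results of these data known. A comparison of CpG content over the called genes' promoters is void, since fewer than 80% (78.4% of called and 75.0% of all autosomal genes) have a RefSeq window. The alternatives were RLE factors, library size alone, TMM from autosomal genes, no filter, a filter of 1 CPM in 3 libraries, DESeq2 1.42.0, limma-voom, the 6 N1300T libraries alone, a block for the replicate letter, halved counts, each library left out, an adjusted p under 0.01 and tests against a 1.2-fold or 1.5-fold change.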

Additional observations from a re-analysis of the deposited data

How the results depend on the processing

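Of the 51 called genes 26 were called in each of the 23 alternatives that kept the threshold, and no called gene of the naming rule changed sign under any alternative. The count was 51 with RLE factors, 54 (23 higher, 31 lower) by library size alone, 53 with TMM from autosomal genes, 46 with limma-voom and 50 with halved counts. It was 225 (111 higher, 114 lower) with no filter on low counts, with 35 list members called, 99 (49 higher, 50 lower) with DESeq2, and 33 (15 higher, 18 lower) from the 6 N1300T libraries alone; the cause was not tested. A stricter adjusted p under 0.01 left 29 (11 higher, 18 lower), a test against a 1.2-fold change 25 (11 higher, 14 lower) and against 1.5-fold 4 (0 higher, 4 lower). With 1 library left out, calls ran from 32 to 72 (14 to 30 higher, 18 to 42 lower) and list members called from 5 to 12 in place of 7, the highest values without N1300T 81 C; arms left with 2 libraries share the spread of all groups. Replicate letters do not pair the libraries by the labels: same-lettered libraries of N1300T 49 and N1300T 81 correlated at 0.0662 to 0.236 in their deviations from the group means and different letters at -0.248 to 0.0349, so each correlated best with its own letter, a hint from the data. Same-lettered N1300T and Tet1KO libraries correlated at 0.0843 to 0.312, and same-lettered N1300T and DKO libraries at -0.0419 to 0.0221. A replicate block gave 96 calls (44 higher, 52 lower) over 12 libraries and 220 (106 higher, 114 lower) with 33 list members over the 6. Chromosome medians stayed between -0.0387 and 0.0341 under each scaling and with each N1300T library left out. In counts simulated for this contrast, with its depth, spread and number of libraries, 36% of genes changed 1.2-fold were recovered. All changed genes there had a mean of at least 1 CPM, and the draws held no correlation between same-lettered libraries.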

Other observations

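Beyond the autosomal genes 7 more were called, all higher in N1300T 49. Fmr1nb, an X-linked gene known as a testis and tumour antigen, had 1678, 1092 and 1147 counts in N1300T 49, against 19, 18 and 45 counts in N1300T 81 (log2 fold change 5.91 ± 0.23, adjusted p 1.8e-11 by edgeR's quasi-likelihood test); DKO held 3455 and Tet1KO 2745 counts over 3 libraries. Its neighbour Fmr1, 85 kb away from midpoint to midpoint, was not called (-0.03 ± 0.07). Maoa, the X-linked monoamine oxidase A, had 15.5, 13.5 and 13.1 CPM in N1300T 49 and 9.26, 8.15 and 6.29 CPM in N1300T 81 (0.83 ± 0.12, adjusted p 0.00139), below 21.0 to 22.9 CPM in DKO and 24.4 to 28.1 CPM in Tet1KO. Over the 529 X-linked genes tested 2 were called, and their median was 0.00934. Gm39552, a predicted gene without a chromosome in the table used, had 25, 28 and 28 counts in N1300T 49 and 0, 0 and 0 in N1300T 81, with 190 in DKO and 136 in Tet1KO. The remaining 4 are the Y-linked Ddx3y, Uty, Eif2s3y and Uba1y.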
